A study of Mus musculus with 6 samples.

Results

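The 1187 cells described here were goblet cells of the mouse jejunal epithelium, taken out of 26696 passing barcodes by their share of mucus transcripts. In each library of the deposited cell-called matrices, barcodes with at least 750 detected genes and at most 20% of UMIs from mitochondrial genes passed, where a UMI (unique molecular identifier) stands for 1 captured RNA molecule. A passing barcode was taken as a goblet cell if *Muc2*, *Fcgbp*, *Clca1*, *Tff3* and *Zg16* together made up at least 3% of its UMIs and *Lyz1*, a Paneth cell lysozyme, less than 2%. The levels of these 6 genes chose the cells, so their values are given as a description and without a test.

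The cells came from 6 droplet libraries of male wildtype C57BL/6J mice, aged about 30 weeks. The mice had eaten a low-fat diet (LFD, 10% fat) or a high-fat diet (HFD, 60% fat) for 16 weeks before surgery. After surgery they returned to the same diet. Tissue was taken 5 weeks after vertical sleeve gastrectomy (VSG), an operation that removes much of the stomach, or after a sham operation. LFD sham and HFD sham each pooled 3 mice and HFD VSG pooled 2 mice, and each pool gave a crypt-labelled and a villus-labelled library, parted by straining the detached epithelium. No group ate the low-fat diet and had VSG. Each condition thus had 1 library per label, and differences between conditions are given with counting intervals and no test, while crypts and villi were compared over the 3 pools.

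Goblet cells are the mucus-secreting lineage of the intestinal epithelium. They arise from crypt progenitors when Notch signalling is low and the transcription factor *Atoh1* is expressed, mature under *Spdef*, and travel up the villus until they are shed. *Muc2* is the gel-forming mucin of intestinal mucus. It is folded and dimerized in the endoplasmic reticulum (ER) with the help of *Agr2*, decorated with O-linked glycans in the Golgi, stored in granules and released by exocytosis. *Fcgbp*, *Clca1*, *Zg16* and *Tff3* are secreted with it: *Fcgbp* is a large protein with mucin-like assembly domains, *Clca1* a metalloprotease that processes mucus, *Zg16* a lectin that binds Gram-positive bacteria, and *Tff3* a trefoil peptide of mucosal repair. Goblet cells also release antibacterial lectins, among them *Reg3b* and *Reg3g* of the C-type lectin family.

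The regions upstream of 4 genes are shown because the results turn on them: *Muc2* and *Fcgbp*, the mucus genes that chose the cells and have an entry in the promoter table, and *Reg3b* and *Reg3g*, which were lower on the high-fat diet by more than any other secreted protein of host defence listed here. Only 2 of the 5 mucus genes were matched. Each run holds the 250 bases before the RefSeq gene start in GRCm38.p6, 5′ to 3′ on the strand of the gene. *Muc2* lies at chr7:141690090-141690339 (plus strand), *Fcgbp* at chr7:28070986-28071235 (plus strand), *Reg3b* at chr6:78370635-78370884 (plus strand) and *Reg3g* at chr6:78468875-78469124 (minus strand). Capitals mark matches to an E-box (CAGCTG) or a STAT motif (TTCNNNGAA, N standing for any base). A forkhead motif (TGTTTAC) was searched as well, and both strands were read for all 3.
Muc2: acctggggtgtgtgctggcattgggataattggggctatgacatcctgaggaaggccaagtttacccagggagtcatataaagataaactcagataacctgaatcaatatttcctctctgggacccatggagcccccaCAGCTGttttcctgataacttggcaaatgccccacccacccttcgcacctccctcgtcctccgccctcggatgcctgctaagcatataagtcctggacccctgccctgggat
Fcgbp: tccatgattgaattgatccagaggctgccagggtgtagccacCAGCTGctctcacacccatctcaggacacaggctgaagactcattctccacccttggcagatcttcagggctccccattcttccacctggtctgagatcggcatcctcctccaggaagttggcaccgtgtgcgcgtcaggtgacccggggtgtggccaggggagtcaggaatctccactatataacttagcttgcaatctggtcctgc
Reg3b: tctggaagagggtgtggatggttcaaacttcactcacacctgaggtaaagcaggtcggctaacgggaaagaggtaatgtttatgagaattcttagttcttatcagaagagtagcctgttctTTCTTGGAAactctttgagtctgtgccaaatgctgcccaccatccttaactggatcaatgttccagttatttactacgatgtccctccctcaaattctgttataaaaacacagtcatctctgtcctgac
Reg3g: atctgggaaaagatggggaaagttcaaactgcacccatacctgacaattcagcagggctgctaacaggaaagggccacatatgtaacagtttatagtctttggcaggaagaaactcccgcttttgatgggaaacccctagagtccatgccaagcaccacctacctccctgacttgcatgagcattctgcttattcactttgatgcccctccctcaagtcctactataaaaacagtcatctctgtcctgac

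The E-box stood 112 to 107 bases before the start of *Muc2* and 208 to 203 bases before that of *Fcgbp*. The letters occur in 13.0% of 32851 promoter windows of the same length. The *Reg3b* window held TTCTTGGAA at 129 to 121 bases before the start, a spacing found in 7.02% of windows, and the *Reg3g* window held none of the 3 motifs. The forkhead letters, present in 3.17% of all windows, were in none of the 4. These matches describe letters and not bound sites.

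Goblet cells numbered 133 in LFD sham, 85 in HFD sham and 142 in HFD VSG crypts, and 276, 306 and 245 in the villi of the same groups. Their sums held 653635 to 6586092 UMIs per library, with the fewest in HFD sham crypts and the most in HFD VSG villi, so counting error was largest in HFD sham crypts. The median goblet cell held 5303 (HFD sham crypts) to 25810 UMIs (HFD VSG villi) and 1615 to 4503 detected genes. The pairs of libraries shared 2 to 13 passing barcodes and no goblet barcode. No doublet was removed, and barcodes scored as likely doublets made up 11.6% to 17.3% of goblet cells, against 7.73% to 10.3% of the other passing cells. Droplets of fewer than 100 UMIs, which hold RNA free in the suspension, gave 0.397% to 0.709% of their UMIs to the 5 mucus genes.

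The labels did not go with the markers of position. Among the passing cells outside the goblet class, 13 enterocyte genes took 9.29% to 9.87% of UMIs in the 3 crypt-labelled libraries and 3.56% to 6.78% in the 3 villus-labelled ones. Paneth genes, which mark the crypt base, took 1.30% to 1.49% in crypt-labelled and 1.83% to 9.74% in villus-labelled libraries. The goblet cells followed the same order. In their sums enterocyte genes took 2.38%, 3.11% and 2.74% of UMIs in LFD sham, HFD sham and HFD VSG crypts, and 0.884%, 0.998% and 0.561% in the matching villi. Paneth genes took 0.558%, 0.464% and 0.678% in crypts and 1.18%, 1.33% and 1.45% in villi. Crypts and villi below therefore stand for the labels of the libraries. Whether the labels were exchanged was not tested, and if they were, the direction of every difference between crypts and villi, cell shares included, would be turned.

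Markers of other cell types were read in the goblet sums as follows. All 12 Paneth and all 13 enterocyte markers were detected in each library. Stem cell genes took 0.0306% to 0.0642% of UMIs, with *Gkn3*, *Ascl2* or *Lgr5* at 0 in some libraries, against 0.0170% to 0.101% in the other passing cells. Their summed share was above that of the other cells of the same library in all crypts and HFD sham villi, and below it elsewhere. The members went different ways. *Olfm4* and *Clca3b* were lower than in the other cells in every library, so the higher sums came from other members of the list. Enteroendocrine genes took 0.0153% to 0.0206%. Tuft cell genes were at or below 0.00392% and immune cell genes at or below 0.0227%, and *Cd3e*, a T cell receptor subunit, was at 0 in 4 libraries. The free RNA held 3.03% to 9.39% enterocyte and 0.875% to 6.40% Paneth transcripts. From the enterocyte genes themselves, free RNA could make up at most 6.54% (HFD VSG villi) to 28.7% (HFD sham crypts) of the goblet UMIs.

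Goblet cells were a larger share of passing cells in villi than in crypts in all 3 pools. The share was 2.89% (95% exact Clopper-Pearson interval 2.42 to 3.41) in LFD sham, 2.59% (2.07 to 3.19) in HFD sham and 2.71% (2.29 to 3.19) in HFD VSG crypts. In villi it was 6.06% (5.38 to 6.79), 7.09% (6.34 to 7.90) and 5.22% (4.60 to 5.89). The ratio of the crypt to the villus share was 0.476 in LFD sham, 0.365 in HFD sham and 0.520 in HFD VSG. Between conditions, the intervals overlapped in crypts, whereas the villus share of HFD VSG was 0.736 times that of HFD sham (0.619 to 0.873). Without barcodes of at least 1% immune gene UMIs, passing villus cells fell from 4556, 4315 and 4697 to 3981, 4311 and 4145. The villus shares were then 6.93% in LFD sham, 7.10% in HFD sham and 5.91% in HFD VSG, so this ratio also carries the uneven number of immune cells. Intervals in this text cover counting error only, and do not cover differences between mice or preparations. Those of UMI ratios do not cover differences between cells either. Under a stricter limit of 10% mitochondrial UMIs the villus ratio of HFD VSG to HFD sham was 0.438 and the crypt-to-villus ratio in HFD VSG turned to 1.22. The median mitochondrial share was 4.05% to 6.59% in goblet cells and 7.24% to 12.9% in the other cells.

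The mucus share varied widely among the cells. Its median was 14.1% of UMIs in LFD sham, 10.9% in HFD sham and 13.9% in HFD VSG crypts, and 8.16%, 8.59% and 8.57% in the matching villi. All 3 crypt medians lay above all 3 villus medians. The highest cell of each library reached 42.4% to 50.6%. Cells in which mucus genes took at least 20% of UMIs made up 37.6%, 30.6% and 42.3% of crypt-labelled goblet cells but 12.3%, 9.48% and 10.6% of villus-labelled ones. In the other passing cells the median share was 0.0192% to 0.0626%.

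**Figure D1:**
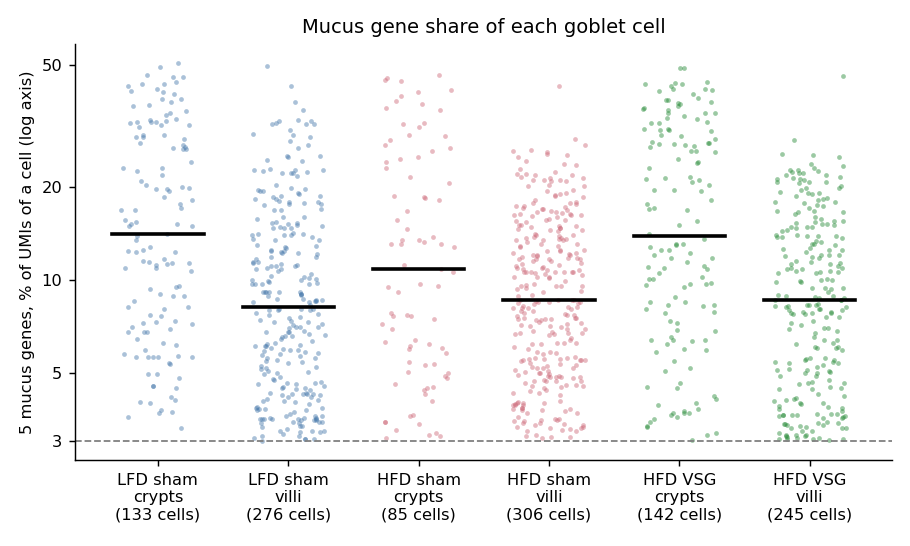
Share of UMIs from the 5 mucus genes in each goblet cell (percent, log axis) by library, with 1 point per cell and the median of each library as a line. The medians of the 3 crypt-labelled libraries, 10.9% to 14.1%, stand above those of the 3 villus-labelled libraries, 8.16% to 8.59%.

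Barcodes just outside the 3% limit also held goblet transcripts. Barcodes with 2% to 3% mucus UMIs numbered 18, 12 and 20 in LFD sham, HFD sham and HFD VSG crypts and 55, 42 and 41 in villi, and those with 3% to 4% numbered 6, 10 and 16 in crypts and 47, 41 and 48 in villi. Just outside the limit, *Agr2*, the disulfide isomerase of mucin folding, was at 4643, 7390 and 7357 CPM (UMI counts scaled to a common library total) in crypts and 7607, 6609 and 10459 in villi. Just inside it, *Agr2* was at 8583, 7186 and 10327 CPM in crypts and 8593, 8332 and 10602 in villi.

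*Zg16* and *Fcgbp* supplied most of the mucus transcripts. *Zg16* took 6.17%, 5.09% and 5.11% of goblet UMIs in LFD sham, HFD sham and HFD VSG crypts and 3.35%, 3.71% and 3.82% in villi. *Fcgbp* took 4.53%, 4.06% and 4.57% in crypts and 2.56%, 2.54% and 1.73% in villi. Both were higher in every crypt-labelled than in every villus-labelled library. *Muc2* itself took 1.88%, 1.57% and 1.75% in crypts and 1.01%, 0.952% and 0.749% in villi, and *Clca1*, the least abundant, 0.240% to 0.823%. *Tff3* stood apart from the others, since its share of 2.88%, 2.30% and 2.50% in crypts overlapped with 2.24%, 2.32% and 2.79% in villi.

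The mixture of mucus transcripts in HFD VSG villi stood apart. *Tff3* made up 29.4% of the mucus UMIs there, against 17.0% to 23.9% in the other 5 libraries, and *Fcgbp* 18.3%, against 25.7% to 31.0%. Cell by cell, *Tff3* was the leading mucus gene in 44.9% of goblet cells of HFD VSG villi and in 11.8% to 30.8% elsewhere. *Fcgbp* led in 6.12% of the HFD VSG villus cells and in 29.1% to 51.8% elsewhere.

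**Figure D2:**
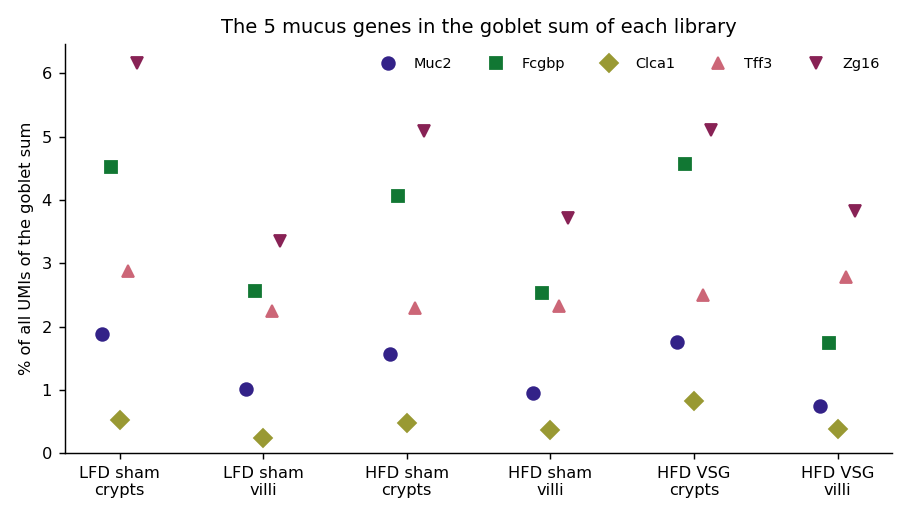
Percent of goblet UMIs taken by each of the 5 mucus genes in each library, drawn by condition and label. Zg16 and Fcgbp are the highest in crypts, and Tff3 at 2.79% exceeds Fcgbp at 1.73% in HFD VSG villi.

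Outside the genes of the rule, the genes most concentrated in goblet cells were ordered by the lowest of the 6 ratios to the other passing cells of the same library. *Fer1l6*, of the ferlin family of membrane fusion proteins, led with 69.0-fold to 255-fold. *Capn9*, a calpain protease of the digestive tract, followed with 55.0-fold to 213-fold, and *Bcas1* with 53.4-fold to 176-fold. *Agr2* was 32.7-fold to 94.6-fold higher. The others among the first 20 were the proteases *Tpsg1*, *Klk1* and *Bace2*, the secreted phospholipase *Pla2g10*, the membrane-binding *Anxa3*, the *Rab15* effector *Rep15*, the transport adaptor *Sybu*, the channels *Kcnk6* and *Scnn1a*, the muscarinic receptor *Chrm1*, the regulators *Id4* and *Rasd2*, and *Ano7*, *2210011C24Rik*, *Gm12511* and *Rap1gapos*. *Muc2*, for scale, was 39.8-fold to 235-fold higher. These ratios describe cells chosen by their transcripts and carry no test.

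Goblet cells of high and low mucus share differed in gene groups that the rule did not use. The cells of each library were ordered by mucus share and cut into 3 equal parts, and the upper part was compared with the lower one in CPM of the UMIs other than mucus UMIs. The median mucus share was 16.5% to 34.9% in the upper and 3.76% to 5.66% in the lower parts. The median depth of a cell was lower in the upper part in 5 of 6 libraries, with 6392.5 against 13349.5 UMIs in LFD sham crypts. Outside mucus, cells of the upper part held 0.314 to 0.757 times the mean UMIs of those of the lower part. A higher share of a gene therefore need not mean more of its RNA per cell. The split uses the measure of the rule, so the values are a description. Over 4525 genes the median log2 ratio was -0.01, with 816 genes higher and 872 lower in all 6 libraries. A sum under 3 UMIs was set to 3 here too. As the upper parts held fewer UMIs, this raises the ratios of genes with few UMIs. *Stmn1* in HFD VSG crypts thus had 0.93 on 1 UMI in the upper and 5 in the lower part. Counts over all 6 libraries carry this effect.

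In high-mucus cells genes known from the villus tip and from granule release took larger shares of the UMIs outside mucus. Of 7 villus-tip genes, 6 were higher in all 6 libraries, with a list median of 1.54 on the log2 scale. Of 17 genes of granule trafficking and exocytosis 12 were higher in all libraries (median 0.74), among them *Fer1l6* (2.36 [1.67 to 3.47], the median and the range over libraries). Mucin O-glycosylation had 15 of 27 genes higher in all libraries (median 0.54), including *Gcnt3*, which branches O-glycans (1.27 [0.83 to 1.74]). The transcription factor *Klf4*, which acts in goblet cell maturation, was higher by 1.09 [0.71 to 1.58]. The genes with the largest ratios were *Cpm*, a carboxypeptidase (3.08 [1.29 to 6.33]), *Ddx60* and *Oasl1* of the interferon response (2.97 and 2.61), *S100a6* (2.94), *Gsta4*, a glutathione transferase (2.88), *Cldn4* of the tight junction (2.67), *Enpp3* (2.66), *AW112010* (2.55), *Fam3b* (2.52) and *Mxd1*, an antagonist of Myc (2.46).

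In low-mucus cells genes of oxidative metabolism took larger shares of the UMIs outside mucus. Of 69 nuclear genes of oxidative phosphorylation 60 were lower in the upper part in all 6 libraries (list median -0.57). Genes of lipid oxidation and PPAR targets had 12 of 21 lower in all libraries (median -0.63), and S and G2/M phase genes had 3 of 8 lower in all libraries (median -1.83). Among the lowest were *Rnase1*, a secreted ribonuclease (-3.57 [-4.42 to -1.92]), the Paneth defensin *Defa17* (-2.68 [-4.32 to -0.54]), the proliferation marker *Mki67* (-2.51 [-3.43 to -0.56]), the chemokine *Ccl9* (-2.29), *Cps1* of the urea cycle (-2.24), *Clca3b* (-2.20), the peroxidase *Gpx2* (-2.18), *Ppp1r1b* (-1.94) and *Hmgb2*, abundant in dividing cells (-1.89). For *Defa17* 1 cell held 31.2% to 52.8% of the UMIs in all 3 crypt libraries and in HFD VSG villi, for *Mki67* 31.4% to 59.5% in the 3 crypt libraries, and in HFD sham crypts 39.7% for *Hmgb2*, 32.8% for *Cps1* and 31.2% for *Clca3b*. Of all UMIs, mucus included, enterocyte genes took 0.476% to 3.33% in the lower and 0.291% to 1.95% in the upper parts. The lower part was above the upper in all 6 libraries, but a larger mucus share by itself lowers the upper values. In UMIs outside mucus, 2 of 13 enterocyte genes were lower and 0 higher in all libraries (list median -0.38). Barcodes scored as doublets numbered 1 to 20 in the lower and 0 to 8 in the upper parts. The part of enterocyte RNA and of doublets in these values was not tested.

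The comparison of crypt-labelled and villus-labelled goblet cells asked how the class differs between the fractions as labelled, and it is the only one here with replicate pools. Of 6028 genes that averaged at least 50 UMIs per library, 823 (13.7%) were higher and 725 (12.0%) lower in crypts by edgeR's quasi-likelihood test with the pool as block, at a Benjamini-Hochberg adjusted p under 0.05. Without the LFD sham pool 625 were higher and 342 lower. *Apoa4*, a lipoprotein of fat absorption, was at 1861, 3414 and 3037 CPM in crypts and 212, 359 and 105 in villi (LFD sham, HFD sham, HFD VSG). The groups did not overlap, and the log2 difference was 3.73 ± 0.30 (SE, adjusted p = 1.14e-07). *Olfm4*, a marker of intestinal stem cells, was at 5.48, 4.86 and 3.04 CPM in crypts and 56.1, 31.2 and 100.4 in villi. Every villus value exceeded every crypt value, with a difference of -3.98 ± 0.32 (SE, adjusted p = 1.05e-07). The crypt values rest on 8, 3 and 5 UMIs, and 1 cell held 27.2%, 42.1% and 34.6% of the UMIs in the villi of the same groups. *Olfm4* was at 76.5, 97.8 and 134 CPM in crypts and 497, 187 and 452 in villi in the other passing cells and at 33, 33.8 and 61.6 CPM in crypts and 266, 92.5 and 399 in villi in free RNA, above the goblet level in every library, and their part in the goblet values was not tested. These levels, and all CPM of goblet cells below, are summed counts after TMM scaling.

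The 10 genes that rose most in crypts were largely enterocyte and villus-tip genes. *Clca4a*, of the calcium-activated chloride channel regulator family, was at 142, 322 and 178 CPM in crypts and 13.4, 6.18 and 0.997 in villi, a difference of 5.05 ± 0.39 (SE, adjusted p = 7.82e-08). *Ada*, adenosine deaminase, was at 71.2, 206 and 129 CPM in crypts and 7.27, 5.93 and 2.33 in villi, a difference of 4.68 ± 0.31 (SE, adjusted p = 1.93e-08). The others were *Ly6m* (4.72), *Pmp22* (4.39), the tryptophan-degrading *Ido1* (4.01), *Bst1* (3.34), *Cubn*, the cobalamin receptor cubilin (3.34), the selenium carrier *Selenop* (3.17) and *Lct*, lactase (3.07), all on the log2 scale. *Ido1* stood out among them by its level outside the goblet cells, which was 0 to 0.450 CPM in the other passing cells against 106, 97.2 and 21.3 CPM in crypts and 11, 0 and 2.33 in villi of the goblet class. The goblet sum of HFD sham villi held no *Ido1* UMI, so the fitted difference depends on the prior count. In *Clca4a* and *Ly6m* 1 cell held 64.5% and 65.9% of the UMIs in HFD VSG crypts. In HFD VSG villi 1 cell held 94.4% of the UMIs of *Ly6m*, 75% of those of *Pmp22*, 60% of *Cubn*, 48.6% of *Lct*, 37.9% of *Bst1* and all 14 of *Ido1*. *Clca4a*, by contrast with *Ido1*, was at 12.3 to 449 CPM in the other cells and 12.5 to 491 in free RNA.

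The genes that fell most in crypts belonged to cell division and the crypt base. Besides *Olfm4* they were the histones *Hist1h1b* (-2.63) and *Hist1h2ae* (-2.34), *Ube2c* and *Stmn1* of mitosis (-1.87 and -1.73), the Paneth defensin genes *AY761184* (-2.02), *Defa3* (-1.92), *Gm7861* (-1.90) and *Gm14851* (-1.85), and *Dmbt1*, a secreted scavenger receptor that binds bacteria (-1.92). Defensin genes are near-identical copies whose reads the counting can split, so their single values are uncertain. In *Hist1h1b* 1 cell held 19.2% to 42.4% of the UMIs of the villus libraries, and in *Ube2c* 16.6% to 29.96%. In crypts *Hist1h1b* rests on 16, 2 and 11 UMIs and *Hist1h2ae* on 10, 0 and 6. For *Gm7861* 1 cell held 67.7% of the UMIs in HFD VSG villi. Of the 10 Paneth genes other than *Lyz1*, which the rule used, 8 fell, *Clps*, colipase, rose (0.60) and *Defa17* did not pass the test (median log2 -1.20 with *Lyz1* included). *AY761184* was at 948 to 9711 CPM in the other cells and 887 to 7611 in free RNA, with the same order between labels, and the part of free RNA in the defensin values was not tested.

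**Figure D3:**
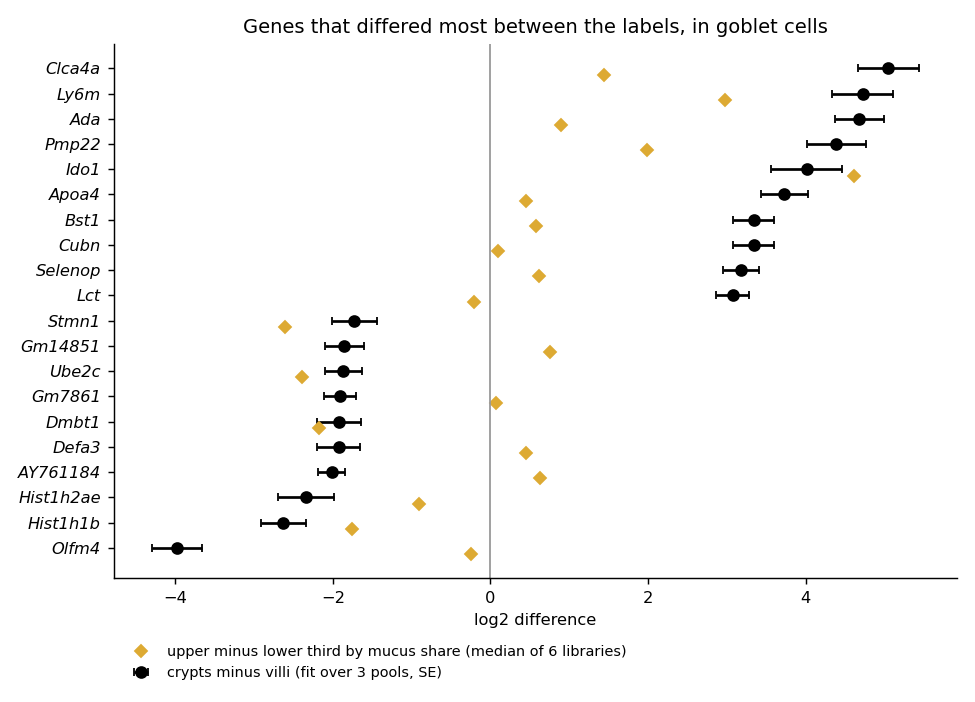
Circles, log2 difference of crypt-labelled minus villus-labelled goblet sums with its SE for the 10 genes that rose and the 10 that fell most (edgeR, 3 pools). Diamonds on the same axis, the median over 6 libraries of the log2 ratio of high-mucus to low-mucus goblet cells for the same genes. In it Ido1 reaches 4.62 and Stmn1 -2.61.

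The lists of the secretory apparatus are read against the 13.7% of all genes that were higher and the 12.0% that were lower. The counts under 10% mucus are given below with their medians. Granule trafficking and exocytosis had 8 of 20 genes higher in crypts, with a median log2 difference of 0.26 against -0.02 over all genes tested. Among the 8 were *Fer1l6* (1.27 ± 0.15 SE, adjusted p = 1.04e-05 by edgeR), *Sytl2* (0.69 ± 0.17 SE, adjusted p = 0.00876), *Rab27a*, *Myo5c*, *Stx3*, *Unc13b* and *Exph5*, which act in granule transport, tethering or fusion. Mucin O-glycosylation had 7 of 28 higher, with *Galnt1* starting O-glycans, *B3gnt3* and *B3gnt7* extending them, *St3gal4* adding sialic acid, *Gal3st2* adding sulfate, and *Slc26a2* and *Papss2* supplying sulfate, and 1 lower, the sialic acid transporter *Slc35a1* (median 0.13). The ER folding list had 1 gene higher (*Ero1l*, an oxidase of disulfide formation) and 7 lower (*Creb3l4*, *Pdia5*, *Pdia6*, *Creld2*, *Sdf2l1*, *Manf* and *Selenom*) of 35 (median -0.17). Among 21 goblet markers outside the rule, *Sytl2* and *Fer1l6* were higher and *Ccl9*, *Smim6* and *Selenom* lower (median -0.33).

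Secreted proteins of host defence had 1 of 13 genes higher in crypts, *Reg3a*, and 5 lower, the C-type lectin *Reg4*, the intelectin *Itln1*, the pentraxin *Mptx1*, *Ccl9* and *Dmbt1* (median -0.36). *Reg4* was at 72.6, 113 and 87.6 CPM in crypts and 135, 142 and 225 in villi and *Itln1* at 674, 535 and 962 CPM in crypts and 1146, 1529.8 and 2129.9 in villi. For both genes every villus value exceeded every crypt value. Of 23 lineage regulators *Hnf4g* was higher and *Sox9* and *Creb3l4* lower (median -0.16). *Sox9*, a crypt progenitor factor, was at 78.7, 30.8 and 68.1 CPM in crypts and 92.2, 77 and 98.4 in villi. *Atoh1*, at 172, 112 and 154 CPM in crypts and 161, 144 and 191 in villi, and *Spdef*, at 131, 112 and 131 CPM in crypts and 133, 116 and 169 in villi, did not pass the test.

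Among other groups, all 13 enterocyte genes were higher in crypts (median 2.12), as were 8 of 11 villus-tip genes (1.51), 6 of 10 genes of antigen presentation and the interferon response (0.60) and 3 of 13 of glycolysis (0.26). S and G2/M phase genes had 6 of 8 lower (-1.39), stem cell genes 3 of 4 (-1.09) and oxidative phosphorylation 5 of 69 (-0.23). Ion and fluid transport had 6 higher and 3 lower of 17 (0.01), lipid oxidation and PPAR targets 5 and 4 of 22 (-0.13), immediate-early and heat shock genes 6 and 4 of 16 (0.05), and genes marking RNA quality 3 higher of 6 (0.85). Enterocyte genes were also higher in crypts in the other cells and in the free RNA of all 3 pools, and their part in the goblet values was not tested.

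Because crypt-labelled cells had a higher mucus share, the comparison was run again on cells with under 10% mucus UMIs, a setting chosen after the data had been seen. Their median mucus share was 5.30% to 5.93% in crypts and 5.09% to 5.48% in villi. Among 4509 genes then tested, 234 were higher and 55 lower, of which 286 had been called before. *Olfm4* fell by 4.24 on the log2 scale, *Apoa4* rose by 3.13, and *Dmbt1*, *Ube2c*, *Stmn1*, *Hist1h1b*, *AY761184*, *Defa3*, *Gm7861* and *Gm14851* remained lower and *Selenop* and *Lct* higher. The other 7 of the 10 genes that rose most, *Clca4a*, *Ly6m*, *Ada*, *Pmp22*, *Ido1*, *Bst1* and *Cubn*, and *Hist1h2ae* had too few UMIs in these cells to be tested. All 13 enterocyte genes stayed higher and 5 of 8 S and G2/M genes lower. Antigen presentation and the interferon response had 2 of 6 genes higher. Of 20 lineage regulators only *Hnf4g* passed, while *Sox9* (-0.35) and *Creb3l4* (-0.40) no longer did. In edgeR's adjusted test 1 of 26 O-glycosylation genes passed, and 0 of 17 genes of granule trafficking, 0 of 34 of ER folding, 0 of 69 of oxidative phosphorylation and 0 of 21 goblet markers outside the rule. The list medians were then 0.03 for O-glycosylation, 0.19 for granule trafficking and -0.08 for ER folding. Single differences that no longer passed included 0.58 for *Gal3st2* (0.58 before), 0.49 for *Sytl2* (0.69), 0.49 for *Stx3* (0.68) and 0.46 for *Fer1l6* (1.27), so the lost calls do not show that these differences were absent. At an unadjusted p under 0.05 the 4 lists with no call held 4, 5, 2 and 5 genes, against 917 of all 4509. Fewer UMIs entered this comparison, since 41 to 169 cells per library remained.

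HFD sham was compared with LFD sham to describe goblet cells under the high-fat diet. A gene is given as higher or lower in both labels where its log2 ratio was past 0.5 in the same direction in crypts and in villi. This was so for 1.08% of 6028 genes in the higher and 0.730% in the lower direction, and the median over all genes was 0.00 in both labels. In a single label more genes passed, with 10.4% higher and 11.8% lower in crypts and 2.54% and 2.09% in villi. The 2 labels come from the same mice and are not replicates. Values given as a pair are for crypts first and villi second, on the log2 scale. A summed level also does not tell fewer cells with the gene from less RNA in each.

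The antibacterial lectins *Reg3g* and *Reg3b* were lower on the high-fat diet. *Reg3g* was at 2719, 774 and 461 CPM in the crypt-labelled goblet cells of LFD sham, HFD sham and HFD VSG, and 3091, 658 and 747 in the villus-labelled ones. Both LFD values lay above all 4 HFD values, and the log2 ratio of HFD sham to LFD sham was -1.81 [-1.95 to -1.68] in crypts and -2.23 [-2.29 to -2.17] in villi, with 95% Poisson-based intervals. *Reg3b* was at 4103, 2313 and 1845 CPM in crypts and 4531, 1605 and 628 in villi in the same order, a ratio of -0.83 [-0.91 to -0.74] in crypts and -1.50 [-1.54 to -1.46] in villi. The cell with the most UMIs of *Reg3g* held 19.0% of them in HFD sham crypts and 32.8% in HFD VSG crypts. For *Reg3b* these values were 20.6% and 31.9%, and the intervals do not cover such differences between cells. The upstream regions of these genes are printed above. The diets stood in the same order in the other cells. *Reg3g* was at 3556, 1532 and 1139.9 CPM in crypts and 4104, 1469 and 1423 in villi in the other passing cells and at 2743, 1064 and 991 CPM in crypts and 3409.9, 940.2 and 1356 in villi in free RNA. *Reg3b* was at 12400.2, 9139 and 6720.5 CPM in crypts and 13358, 7789 and 4111 in villi in the other cells. Under 9 other settings of the processing, free RNA subtraction among them, the *Reg3g* ratios ran from -2.25 to -1.32 in crypts and from -2.39 to -2.19 in villi, and those of *Reg3b* from -2.37 to -0.37 in crypts and from -1.88 to -1.36 in villi.

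Among 13 secreted proteins of host defence, 3 were lower in both labels and 2 higher, with list medians of -0.33 and 0.08. The third lower gene was *Dmbt1*, at 123, 74.5 and 7.91 CPM in crypts and 334, 194 and 111 in villi, a ratio of -0.72 [-1.22 to -0.24] in crypts and -0.78 [-0.91 to -0.65] in villi, although 1 cell held 52.2% of its UMIs in HFD sham crypts and 1 cell 25.7% in LFD sham crypts. *Reg3a*, another lectin of the family, was higher, at 75.3, 119.9 and 81.5 CPM in crypts and 24.2, 72.7 and 15.5 in villi, a ratio of 0.67 [0.23 to 1.11] in crypts and 1.59 [1.26 to 1.93] in villi. *Mptx1*, a pentraxin of the mucosa, was at 9.59, 29.2 and 17.6 CPM in crypts and 24.6, 58.2 and 81.8 in villi, higher by 1.60 [0.52 to 2.72] in crypts and 1.24 [0.90 to 1.59] in villi, while the other passing cells held 0.105 to 1.87 CPM. *Mmp7*, the protease that activates Paneth defensins, was lower, at 294, 154 and 219 CPM in crypts and 395, 237 and 373 in villi, a ratio of -0.94 [-1.27 to -0.61] in crypts and -0.74 [-0.85 to -0.62] in villi. Its crypt values exceeded those of the other cells, which were 50.7, 36.6 and 40.3 CPM in crypts and 341, 152 and 58 in villi.

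Genes of antigen presentation also had low values in HFD sham. *H2-Ab1*, a chain of MHC class II, was at 83.5, 27.5 and 23.7 CPM in crypts and 58.9, 17.5 and 22.4 in villi, and both LFD values exceeded all HFD values, with a ratio of -1.60 [-2.43 to -0.86] in crypts and -1.75 [-2.16 to -1.36] in villi. In the other passing cells it was at 264, 38.1 and 21.6 CPM in crypts and 163, 18.7 and 7.86 in villi, so the diets stood in the same order, and with free RNA subtracted at the limit the goblet ratio in crypts was 0.07. *Cd74*, the invariant chain of MHC class II, was at 130.1, 8.10 and 17.6 CPM in crypts and 78.8, 2.32 and 4.49 in villi, although 1 cell held 40% of its UMIs in HFD sham crypts. These were the 2 of 10 genes of the list that were lower in both labels (medians -0.36 and -0.30).

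The remaining genes of the 10 with the lowest ratios were *2210407C18Rik* (-2.59 and -0.92), the nucleic acid sensor *Zbp1* (-0.90 and -0.96), the Hsp90 co-chaperone *Stip1* (-0.82 and -0.74), *Lgals3bp* (-0.94 and -0.74), *Nfkb2*, a subunit of NF-kB (-0.84 and -0.68), and the keratin *Krt23*. The crypt intervals of *Zbp1* and *Stip1* included 0. *Krt23* was low outside the goblet cells. It was at 43.8, 21.1 and 35.3 CPM in crypts and 26, 16.5 and 28.8 in villi against 2.73 to 6.53 CPM in the other cells, with a ratio of -1.06 [-2.04 to -0.18] in crypts and -0.66 [-1.13 to -0.20] in villi.

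The 10 genes with the highest ratios in HFD sham included enzymes and carriers. *Rbp2*, the retinol-binding protein of enterocytes, was at 1583, 3014 and 2447 CPM in crypts and 467, 875 and 449 in villi, a ratio of 0.93 [0.84 to 1.02] in crypts and 0.91 [0.83 to 0.99] in villi. *Ces2a*, a carboxylesterase, was at 51.3, 188 and 62.1 CPM in crypts and 25.8, 60.3 and 35.1 in villi (1.87 [1.44 to 2.31] in crypts and 1.22 [0.89 to 1.56] in villi), and *Aldh1a1*, which makes retinoic acid, at 63.7, 155 and 55.4 CPM in crypts and 29.6, 70.9 and 24.6 in villi (1.29 [0.86 to 1.72] in crypts and 1.26 [0.95 to 1.58] in villi). For these 3 genes HFD sham was the highest condition in each label. *Dnase1*, a secreted nuclease, had ratios of 1.37 and 1.55, *Apoc2*, the cofactor of lipoprotein lipase, 0.91 and 0.91, and the enzymes *Cyp2d26*, *Ggt1*, *Maoa*, *Enpp7* and *Cmbl* 0.77 to 1.09 in either label. Of 13 enterocyte genes, *Alpi*, *Apoa4*, *Rbp2* and *Anpep* were higher in both labels (medians 0.30 and 0.40).

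The same genes were higher in the cells around them. *Rbp2* was at 6203, 9996 and 11116 CPM in crypts and 2866, 7871 and 4279.6 in villi in the other passing cells and at 4990.4, 8617 and 12098 CPM in crypts and 2290.1, 5237 and 5030.3 in villi in free RNA, both above the goblet level in every library. *Ces2a* was at 181, 369 and 205 CPM in crypts and 104, 403 and 155 in villi in the other cells. With free RNA subtracted at the enterocyte-gene limit the ratio was -0.89 for *Rbp2* in villi, and -1.16 in crypts and -1.88 in villi for *Apoc2*. With likely doublets removed, the ratio of *Enpp7*, an alkaline sphingomyelinase, was -0.45 in villi.

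The genes of mucus making had few ratios past 0.5 in both labels between the diets. Over all 6028 genes only 1.08% were higher and 0.730% lower in both. Lists of this length would hold few or none at those shares, so the counts are not particular to these genes. The 5 mucus genes had median log2 ratios of -0.22 in crypts and 0.05 in villi, none past 0.5 in both labels and *Clca1* past it in villi (0.64). In crypts 4 of the 21 other goblet markers were lower by more than 0.5, *Spink4* (-0.71), *Ccl6* (-0.68), *Rep15* (-0.64) and *Hepacam2* (-0.59), against 11.8% of all genes, and in villi *Tpsg1* was higher (0.53). *Muc2* was at 19395, 16638 and 17380 CPM in LFD sham, HFD sham and HFD VSG crypts and at 9306, 8740 and 8203 in villi. None of the 21 markers (medians -0.22 and 0.08), 28 O-glycosylation genes (-0.08 and -0.04), 20 genes of granule trafficking (-0.11 and 0.09) or 23 lineage regulators (-0.14 and -0.04) was past 0.5 in the same direction in both labels. The ER list had 2 of 35 lower in both, *Creld2*, at 78, 42.1 and 38.9 CPM in crypts and 96.9, 63.9 and 59.8 in villi, and the chaperone cofactor *Dnajb9*, at 133, 68 and 91.9 CPM in crypts and 109, 73.4 and 74.6 in villi (list medians -0.34 and -0.12). *Hspa5*, the main ER chaperone BiP, was at 1883, 1432 and 1299.6 CPM in crypts and 2315, 1792 and 1210.0 in villi.

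**Figure D4:**
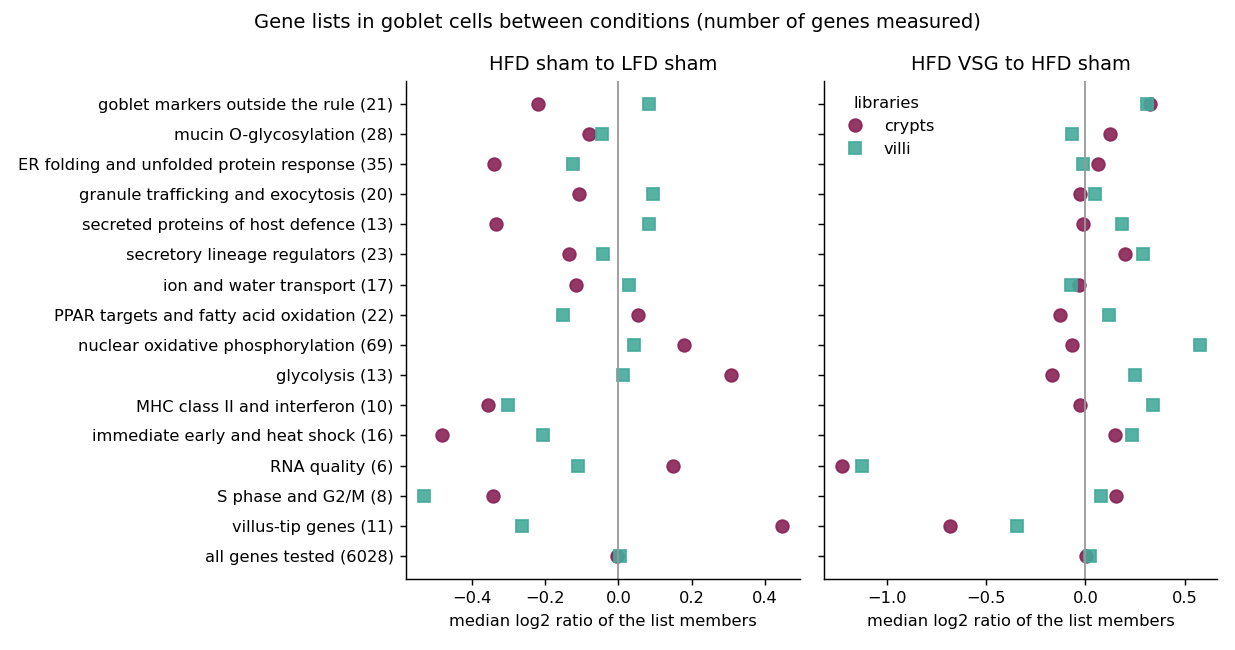
Median log2 ratio over the genes of each of 16 lists in goblet sums, for HFD sham to LFD sham and HFD VSG to HFD sham, with crypts as circles and villi as squares. In the second comparison the RNA quality list stands at -1.23 in crypts (0.10 with free RNA subtracted at the enterocyte-gene limit, not drawn) and -1.12 in villi, and oxidative phosphorylation at -0.07 and 0.57.

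HFD VSG was compared with HFD sham to describe goblet cells after the operation. Both comparisons use the HFD sham libraries, so a gene read high or low there counts in both, and no statistic across them is given. Of the 6028 genes, 2.75% were higher and 3.09% lower in both labels, and in a single label 11.4% and 10.3% in crypts and 17.6% and 13.2% in villi. The split depended on the scaling: 47.2% of the calls were higher with TMM, 30.3% with CPM of all UMIs and 27.2% with CPM of UMIs outside mucus, *Lyz1* and mitochondrial genes. These scalings moved the median of all genes from 0.00 to 0.10 in crypts and from 0.02 to -0.23 and -0.27 in villi. HFD VSG villi were also the deepest library, with a median of 25810 UMIs per goblet cell.

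Several genes that were higher after VSG had low levels outside the goblet cells. *Serpina1b*, an alpha-1-antitrypsin, was at 45.9, 53.5 and 116 CPM in the crypt-labelled goblet cells of LFD sham, HFD sham and HFD VSG, and 31.9, 62.4 and 135 in the villus-labelled ones. Both VSG values lay above the other 4, with a ratio to HFD sham of 1.12 [0.58 to 1.70] in crypts and 1.12 [0.91 to 1.33] in villi. The other passing cells held 0.420 to 1.86 CPM and free RNA 0.501 to 8.53 CPM. *Klf2*, a transcription factor of the Krüppel family, was at 36.3, 14.6 and 42.6 CPM in crypts and 21.3, 15.7 and 29.6 in villi, a ratio of 1.55 [0.54 to 2.73] in crypts and 0.91 [0.49 to 1.36] in villi, against 1.66 to 4.91 CPM in the other cells. Its VSG values were also above those of LFD sham in each label. *Slc23a3*, of the ascorbate transporter family, was higher by 1.84 [0.36 to 3.78] in crypts and 0.95 [0.51 to 1.41] in villi, with 0.630 to 6.20 CPM in the other cells. In HFD sham crypts *Slc23a3* rests on 4 UMIs and *Klf2* on 9. With cells thinned to 1500 UMIs the villus ratio of *Klf2* was 0.05, on 11 UMIs in HFD sham and 9 in HFD VSG. The crypt ratio of *Slc23a3* was then 0.01, a lower bound, since the single UMI of HFD sham was set to 3.

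*Spink4*, a small secreted protease inhibitor of goblet cells, was the only one of 21 goblet markers outside the rule past 0.5 in both labels under TMM scaling. With CPM of all UMIs its villus ratio was 0.32, and *Selenom* (0.50 and 0.53) was the one past 0.5 in both. *Spink4* was at 13584, 8296 and 14346 CPM in crypts and 15401, 17470.0 and 26069 in villi, with ratios of 0.79 [0.75 to 0.83] in crypts and 0.58 [0.56 to 0.59] in villi. The low value of HFD sham crypts and the high value of HFD VSG villi stood at the ends of the range. The other cells held 221, 238 and 265 CPM in crypts and 1404, 980.2 and 597 in villi. The list medians were 0.32 and 0.31. *Agr2* was at 7347, 6464 and 7327 CPM in crypts and 9597, 9624 and 13659 in villi (0.18 and 0.51) and *Klk1*, a kallikrein protease, at 531, 502 and 868 CPM in crypts and 666, 858 and 1050.4 in villi (0.79 and 0.29). For the mucus genes the medians were 0.06 and 0.28, with *Clca1* at 0.69 in crypts and *Tff3* at 0.52 in villi.

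The rest of the 10 highest genes were *Dusp5*, a phosphatase of ERK, at 21.9, 14.6 and 34.1 CPM in crypts and 19.9, 9.02 and 24.1 in villi (1.22 [0.20 to 2.43] in crypts and 1.42 [0.88 to 1.99] in villi), *Xpa* of nucleotide excision repair (1.24 and 1.14), *Zbp1* (1.10 and 1.41), *Gm2000* (1.17 and 1.07), *Tmem159* (1.76 and 1.02), *1500009L16Rik* (0.91 and 0.89) and the retinoid receptor *Rxrb* (1.23 and 0.89). The crypt intervals of *Zbp1*, *Gm2000*, *1500009L16Rik* and *Rxrb* included 0. HFD sham crypts held 4 UMIs each of *Tmem159* and *Rxrb*, 6 of *Gm2000*, 7 each of *Xpa*, *Zbp1* and *1500009L16Rik*, and 9 of *Dusp5*. The crypt ratios of these genes thus rest on counts near the floor of 3. With cells thinned to 1500 UMIs the crypt ratio was -0.57 for *Zbp1*, 0.01 for *Xpa* and -0.25 for each of *Dusp5*, *Gm2000*, *Tmem159* and *1500009L16Rik*. The HFD sham crypt sums of these 6 genes then held 0 to 2 UMIs and were set to 3, so these ratios are lower bounds and show no reversal. *Dusp5* reached 24.9 to 53.6 CPM in the other cells, with its highest values there in HFD sham.

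**Figure D5:**
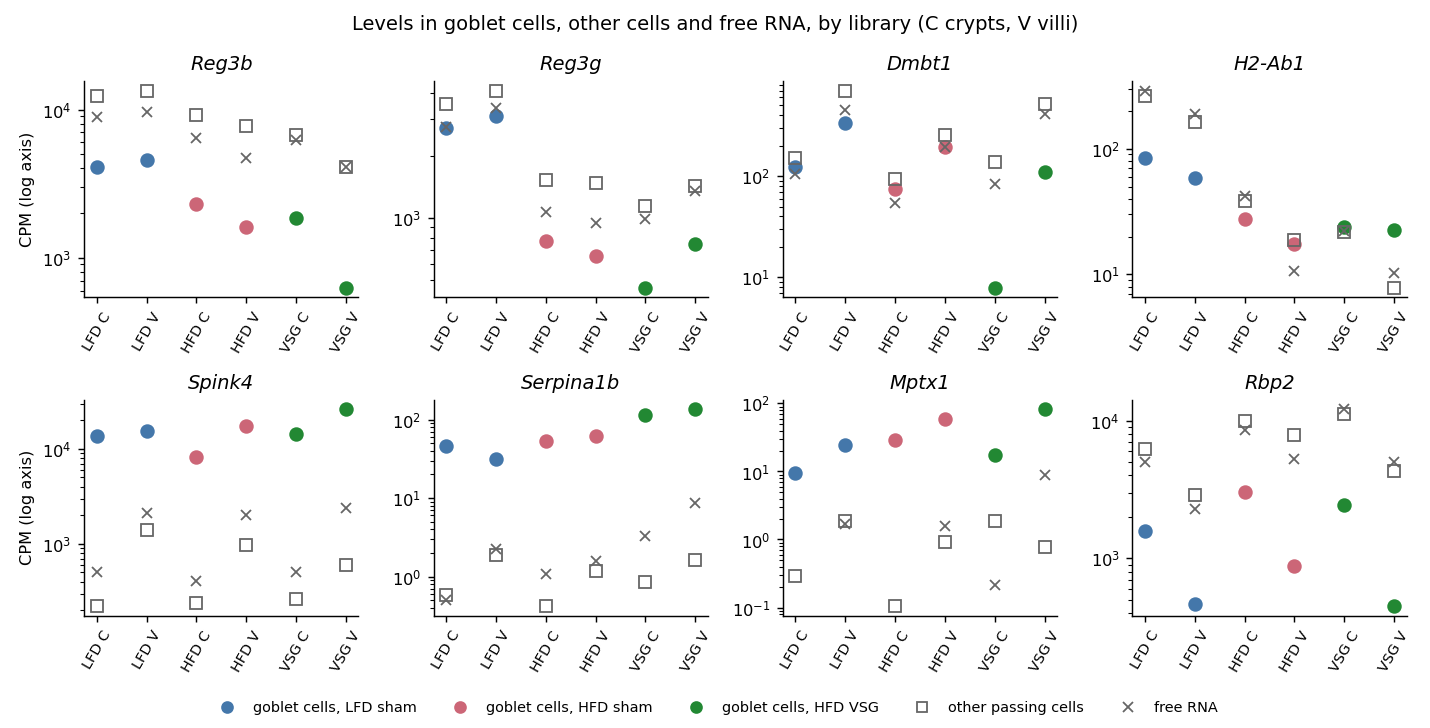
Levels of 8 genes in goblet sums (filled circles, TMM-scaled CPM), in the other passing cells (squares, CPM) and in free RNA (crosses, CPM) of each library, on a log axis. Reg3b, Reg3g and Rbp2 lie lower in goblet cells than in the other cells, whereas Spink4, Serpina1b and Mptx1 lie far above them.

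The 10 genes lower by the most after VSG included the following. *Enpep*, glutamyl aminopeptidase, was at 233, 369 and 156 CPM in crypts and 82.8, 134 and 38.2 in villi (-1.25 [-1.51 to -0.98] in crypts and -1.81 [-2.04 to -1.59] in villi). *Slc7a8* and *Slc16a10*, which carry amino acids, had ratios of -1.44 and -1.78 (*Slc7a8*) and -1.41 and -1.70 (*Slc16a10*), and the receptor kinase *Mertk* -1.41 and -1.69. With cells thinned to 1500 UMIs the villus ratio of *Mertk* was -0.08, on 4 UMIs in HFD sham and 3 in HFD VSG. *Akr1c19*, an aldo-keto reductase, was at 38.3, 92.3 and 22.5 CPM in crypts and 20.9, 51 and 12.6 in villi (-2.04 [-2.67 to -1.41] in crypts and -2.01 [-2.41 to -1.63] in villi), so HFD sham was the highest condition in each label. It was at 109.6, 402 and 125 CPM in crypts and 69.9, 408 and 92.7 in villi in the other cells. *Ugdh*, which makes UDP-glucuronate, had ratios of -1.18 and -1.34 and the reductase *Cyb5r3* -1.27 and -1.13. All of these were lower in HFD VSG than in HFD sham in the other cells as well. The linker histone *Hist1h1d*, at 32.2, 27.5 and 10.3 CPM in crypts and 53.5, 60.04 and 12.5 in villi (-1.41 [-2.47 to -0.35] in crypts and -2.27 [-2.66 to -1.89] in villi), had equal levels of 17.0 CPM in the other cells of both villus libraries.

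*Gm42418*, whose locus overlaps ribosomal RNA sequence, was lower by the most in crypts among the 10. It was at 43666, 78829 and 12267 CPM in crypts and 29779, 27871 and 9004 in villi (-2.68 and -1.63), and at 73075, 62369.9 and 13543 CPM in crypts and 52459.9, 42555 and 8311 in villi in the other cells and 72326, 73018 and 14437 CPM in crypts and 69051, 58857 and 11624 in villi in free RNA. *Lars2*, a mitochondrial tRNA synthetase, was lower by the same order (-2.10 and -1.20). Both belong to the list marking RNA quality, of which 3 of 6 genes were lower in both labels (medians -1.23 and -1.12). With free RNA subtracted at the enterocyte-gene limit the medians were 0.10 in crypts and -0.71 in villi. Mitochondrial transcripts had medians of -0.27 in crypts and -0.33 in villi, and *mt-Atp8* was at 1587, 1375 and 936 CPM in crypts and 1564, 1273 and 176 in villi. Their part in the results of this comparison was not tested.

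The groups of fluid secretion and stress differed as follows. Of 17 genes of ion and fluid transport, *Cftr*, *Slc26a3*, *Slc26a6* and *Slc4a4* were lower in both labels (medians -0.03 and -0.07). *Cftr*, the chloride channel of intestinal secretion, was at 25.3, 32.4 and 12.2 CPM in crypts and 42, 31.7 and 15.8 in villi (-1.41 [-2.38 to -0.44] in crypts and -1.01 [-1.41 to -0.61] in villi). Of 16 immediate-early and heat shock genes, *Fosb*, *Ier2* and *Dusp1* were higher and *Hspa1a*, *Hspa1b* and *Hsp90aa1* lower. *Ier2* was at 319, 222 and 390.0 CPM in crypts and 264, 231 and 523 in villi (0.81 and 1.18). *Hspa1a*, an inducible chaperone, was at 52, 14.6 and 0.608 CPM in crypts and 100.4, 154 and 1.33 in villi, where the HFD VSG crypt value rests on 1 UMI.

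Nuclear genes of oxidative phosphorylation had unlike ratios in crypts and villi, a difference that was not tested. Their median ratio was -0.07 in crypts and 0.57 in villi, where 49 of 69 reached 0.5, against 17.6% of all genes. Only *Ndufs3*, a subunit of complex I, reached it in both (0.55 and 0.67). The size of the villus ratio depends on the scaling. The median of all genes there was 0.02 with TMM and -0.23 with CPM of all UMIs. Such a change moves the list and all genes alike, so the distance between them stays.

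In other lists the genes past 0.5 in both labels were as follows, against 2.75% of all genes higher and 3.09% lower. In antigen presentation 1 of 10 was higher, *Cd74* (1.12 and 0.95). Both ratios rest on its low HFD sham levels given above, where 1 cell held a large part of the crypt UMIs. Host defence had 2 of 13 lower, *Reg3a* (-0.56 and -2.23) and *Dmbt1* (-3.24 and -0.81). For *Dmbt1* HFD VSG was the lowest condition in each label. Its crypt ratio rests on 13 UMIs in HFD VSG and 46 in HFD sham, of which 1 cell held 52.2%. In the other passing cells *Dmbt1* was higher in HFD VSG than in HFD sham, at 138 against 94.3 CPM in crypts and 511 against 257 in villi. *Mptx1* was at a ratio of -0.72 and 0.49. O-glycosylation had 1 of 28 lower, *Papss2* (-0.65 and -0.99), with medians of 0.12 and -0.07. Granule trafficking (medians -0.03 and 0.05), lineage regulators (0.20 and 0.29) and ER folding (0.07 and -0.01) had none. Of 11 villus-tip genes *Ada*, *Clca4a*, *Mxd1* and *Sfn* were lower, and of 13 enterocyte genes *Alpi*, *Apoc3* and *Anpep* (medians -0.30 and -1.27).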

How the data were processed

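RNA of single jejunal epithelial cells was measured by droplet 3′ sequencing in 6 libraries. Per the labels, reads were processed with Cell Ranger 6.0.0 on mm10, and the authors deposited 2 count matrices of UMIs per library, of every barcode and of the cell barcodes. Both held whole counts, which were equal where they overlapped and were used unchanged. Depth ran from 60522766 to 155522445 UMIs over the cell barcodes of a library. Antisense and overlapping genes were taken as counted.

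Of the cell barcodes, 26696 passed the filters (at least 750 genes, at most 20% mitochondrial UMIs) and 1187 met the goblet rule (at least 3% mucus UMIs, under 2% *Lyz1*). The goblet cells, the gene lists and the tests were chosen with earlier results of these data known. UMIs were summed over the goblet cells of each library, and the 6028 genes averaging 50 UMIs or more were kept. Conditions were compared as log2 ratios of TMM-scaled CPM, a sum under 3 UMIs being set to 3, with 95% intervals from Poisson counts. Crypts and villi were compared with edgeR 4.0.16 (R 4.3.3), quasi-likelihood, with the pool of mice as block, since the labels tie both libraries of a condition to the same mice. The deviations of the paired libraries correlated at 0.143 to 0.372. The test was tried on simulated counts with 1 common spread for all genes and no differences between pools. It found 95% of genes changed by 1 and 100% of those changed by 2 on the log2 scale. There were 7 false calls among the unchanged genes of 6028. The simulated counts were simpler than the real ones, so the false calls of the real test were not measured. Named genes were the list members, the 10 highest and 10 lowest in each comparison by the smaller of the ratios in both labels (for conditions, with no cell holding over 25% of the UMIs) or by the fitted change (for labels, with no such limit), the 20 most concentrated in goblet cells, and the 10 at each end of the mucus split. Genes were matched by symbol, and *St6galnac2*, *Ddit3*, *Pla2g2a* and *Aldoa* were not analysed here. A few members of the lists are not reported here. Alternatives covered thresholds, scaling, doublet removal (Python 3.11.15), free RNA subtraction in proportion to droplets under 100 UMIs, thinning to 1500 UMIs and DESeq2 1.42.0.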

Additional observations from a re-analysis of the deposited data

Results flagged for a closer look

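Some listed genes had log2 ratios past 0.5 in opposite directions in the crypt-labelled and villus-labelled goblet sums of the same comparison, with counting intervals that did not include 0. *Clca4a* (1.18 and -1.11), *Ly6m* (1.31 and -2.75) and *Pmp22* (1.87 and -1.62) did so for HFD sham to LFD sham. *Defa17* (-0.85 and 0.73) did so for HFD VSG to HFD sham. In each of these genes 1 cell held over 25% of the UMIs of a compared library. Others are given below. The difference between the labels was not tested, since each condition had 1 library per label. The Paneth defensin *Defa21* was at 73.9, 48.6 and 76.7 CPM in crypts and 154, 261 and 79.96 in villi in LFD sham, HFD sham and HFD VSG. Its ratio of HFD sham to LFD sham was -0.61 [-1.24 to -0.01] in crypts and 0.76 [0.62 to 0.91] in villi, and that of HFD VSG to HFD sham 0.66 [0.07 to 1.28] in crypts and -1.71 [-1.87 to -1.55] in villi. In the same comparison of HFD VSG with HFD sham, *Galnt5*, an enzyme that starts O-glycans, had 0.54 [0.11 to 0.98] in crypts and -0.65 [-0.84 to -0.46] in villi. *Cadps2*, which primes vesicles for release, had 1.11 [0.17 to 2.18] in crypts and -0.56 [-0.91 to -0.22] in villi. The complex I subunits *Ndufa5* and *Ndufb4* had -0.62 [-1.03 to -0.19] in crypts and 0.51 [0.33 to 0.69] in villi and -0.56 [-0.95 to -0.15] in crypts and 0.78 [0.60 to 0.96] in villi.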

How the results depend on the processing

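Of the goblet shares of the 6 libraries under alternative settings, 27 moved by less than their counting interval and 15 by more. With at most 10% mitochondrial UMIs the share was 8.09% in LFD sham, 6.27% in HFD sham and 7.14% in HFD VSG crypts, and 9.49% in LFD sham and 13.4% in HFD sham villi. Then the share ratio was 1.41 for HFD sham to LFD sham villi, 0.438 for HFD VSG to HFD sham villi, and, crypts to villi, 0.853 in LFD sham, 0.469 in HFD sham and 1.22 in HFD VSG, the last reversed. A mucus limit of 2% gave villus shares of 7.27%, 8.06% and 6.09% in LFD sham, HFD sham and HFD VSG, and a limit of 5% gave 4.35%, 5.45% and 3.79%, 2.01% in HFD sham crypts and a crypt-to-villus ratio of 0.589 in LFD sham. With at least 1500 genes HFD sham crypts held 1.80% and their ratio to villi was 0.249. Without immune barcodes the villus share was 6.93% in LFD sham, 7.10% in HFD sham and 5.91% in HFD VSG. The genes higher in HFD sham than in LFD sham in both labels, 65 as reported, numbered 145 at a minimum mean of 20 UMIs, 14 at 200, 5 at a log2 size of 1, 106 with per-cell shares and 214 after thinning. The lower ones, 44 as reported, numbered 110, 9 and 5 under the first 3 settings, 67 with free RNA subtracted at the enterocyte-gene limit and 156 after thinning. The genes higher in HFD VSG than in HFD sham, 166 as reported, numbered 95 with CPM of all UMIs, 84 with CPM outside mucus, *Lyz1* and mitochondrial genes, 255, 29 and 8 with the 2 minimums and the log2 size, and 348 with per-cell shares. The lower ones, 186 as reported, numbered 321, 51, 22 and 308 under the last 4 of these, 305 without doublets and 707 after thinning. Of the ratios of single named genes, 550 stayed within their interval, 157 moved and 10 changed sign. The thinned crypt ratios among these 10 are lower bounds and show no reversal. With free RNA subtracted at the limit, the ratio of HFD sham to LFD sham was -1.16 in crypts and -1.88 in villi for *Apoc2*, -0.89 in villi for *Rbp2* and 0.070 in crypts for *H2-Ab1*, and the median of the RNA quality genes for HFD VSG to HFD sham in crypts was 0.10. Without doublets *Enpp7* stood at -0.45 in villi. The cause was not tested. After thinning, the crypt ratio of HFD VSG to HFD sham was -0.57 for *Zbp1* and -0.25 for *Dusp5*, *Gm2000*, *Tmem159* and *1500009L16Rik*, lower bounds set by the floor of 3 UMIs, since HFD sham crypts held 0 to 2. In crypts against villi, the fit with no replicate block found 496 genes higher and 211 lower in place of 823 and 725, and *Dmbt1* at -1.66 no longer passed. Leaving out 1 pool gave 625 to 830 higher and 342 to 556 lower. Doublet removal gave 494 and 357, free RNA subtraction at 0.1 of UMIs 473 lower, subtraction at the limit 419 and 220, DESeq2 530 and 313 (with *Ido1* at 4.72 no longer past the threshold) and cells of under 10% mucus UMIs, a setting chosen after the data had been seen, 234 and 55. The 227 other fits of the 10 genes that rose and the 10 that fell most kept their direction and their side of the threshold. Members of the lists were not counted here, and some no longer passed in cells of under 10% mucus UMIs, as given above. Depth limited HFD sham crypts most, with 85 cells and 653635 UMIs, and 1 library per condition and label left differences between mice unmeasured.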

Other observations

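Of 8 S and G2/M phase genes, *Mki67*, *Ube2c* and *Stmn1* were past log2 -0.5 in both labels for HFD sham to LFD sham (list medians -0.34 and -0.53, crypts first and villi second), against 0.730% of all genes. *Mki67*, a marker of dividing cells, was at 58.9, 19.4 and 25.6 CPM in crypts and 145, 91 and 37.7 in villi in LFD sham, HFD sham and HFD VSG. In HFD sham crypts *Mki67*, *Ube2c* and *Stmn1* had 12, 3 and 6 UMIs, 1 cell held 6 of the 12 *Mki67* UMIs, and the crypt interval of *Ube2c*, -3.82 to 0.34, included 0. For HFD VSG to HFD sham the list medians were 0.15 and 0.08, and *Ube2c* was past 0.5 in both labels, with a crypt interval of -0.35 to 3.78. Among 16 immediate-early and heat shock genes, *Hsph1*, a chaperone, and *Dusp1*, a phosphatase, were lower in HFD sham than in LFD sham in both labels (list medians -0.48 and -0.21). Of the 10 Paneth genes other than *Lyz1*, *Defa24* and *Mmp7* were past 0.5 in both labels for HFD VSG to HFD sham, against 2.75% of all genes. With *Lyz1* included, the list medians were 0.17 and -0.29. In crypts 4 of 11 were past 0.5 and 1 past -0.5, and in villi 3 and 4. For HFD sham to LFD sham the medians were -0.14 and 0.55, with 1 and 3 in crypts and 6 and 1 in villi.

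The lists of fuel metabolism had the following medians, crypts first and villi second. The 22 PPAR targets and genes of fatty acid oxidation had list medians of -0.13 and 0.12 for HFD VSG to HFD sham and 0.05 and -0.15 for HFD sham to LFD sham. None of 13 glycolysis genes was past 0.5 in both labels in either comparison (medians 0.31 and 0.01 for HFD sham to LFD sham and -0.17 and 0.25 for HFD VSG to HFD sham). Oxidative phosphorylation had medians of 0.18 and 0.04 for HFD sham to LFD sham and of -0.07 and 0.57 for HFD VSG to HFD sham. Villus-tip genes had medians of 0.45 and -0.27 for HFD sham to LFD sham, with crypts and villi on opposite sides of 0, and of -0.68 and -0.34 for HFD VSG to HFD sham. The ribonuclease *Ang4*, a defence protein, was at 314, 222 and 575 CPM in crypts and 256, 465 and 519 in villi and *Lypd8*, a protein that keeps bacteria off the epithelium, at 2446, 2085 and 2746 CPM in crypts and 2072, 2009 and 3138 in villi.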
